A study of Homo sapiens with 10 samples.

Results

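The direct comparison of PC3-EMT14-OVOL2 with PC3-EMT14-OVOL1 set 2 cell lines that carry different OVOL genes side by side, in 1 gene table and 1 isoform table. Its members were all 23170 gene entries and all 37557 isoform entries of those tables, and 5 of the 10 samples in the series entered it: 3 of PC3-EMT14-OVOL1 and 2 of PC3-EMT14-OVOL2. All 4 lines of the series derive from PC3, which was established from a bone metastasis of a human prostate cancer. PC3-Epi (2 samples) is a luciferase-positive epithelial subpopulation, and PC3-EMT14 (3 samples) is a mesenchymal population that was isolated after PC3-Epi cells had been grown together with macrophages. The other lines are PC3-EMT14 cells that were transduced with a lentivirus for OVOL1 or for OVOL2 and then selected. The constructs came in different vectors, no line with an empty vector was sequenced, and whether a line is 1 clone is not given in the sources used here. The study calls the samples of a line biological replicates, without saying whether they were separate cultures. The libraries were made from total RNA and read as pairs.

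The deposited level of a gene is its FPKM, fragments per unit length of transcript, scaled to the size of the library, which the authors estimated once per line from all samples of that line. There is thus 1 value for a line and no value for a single sample, so no spread between samples, no test and no error stands beside any value here, and the depth is unknown. A gene was counted when the higher line had at least 1 FPKM and the lines differed at least 2-fold. "Higher" and "lower" always mean the OVOL2 line relative to the OVOL1 line. Values in PC3-EMT14 and PC3-Epi stand beside some genes; they come from other tables of the series that were scaled on their own, and the PC3-EMT14 values of those tables differed by a median factor of 1.01 to 1.03.

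OVOL1 and OVOL2 are zinc finger transcription factors that are expressed in epithelia. They are known as repressors of genes of the epithelial to mesenchymal transition (EMT), in which epithelial cells give up junctions and polarity and take on a motile, vimentin-rich state. ZEB1 is the EMT factor most closely tied to them: it represses E-cadherin and other epithelial genes through E-box sequences, and the OVOL factors and ZEB1 oppose each other. The reverse process is the mesenchymal to epithelial transition (MET). The comparison asks in which genes lines that had received different OVOL factors differed.

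Each line carried its own factor, at very different levels. OVOL2 (chr20:18004796-18038521, hg19) was at 0.556 FPKM in the OVOL1 line and 831 FPKM in the OVOL2 line. PC3-EMT14 had 0.370 FPKM and PC3-Epi 9.91 FPKM, so the OVOL2 line lay far above the epithelial line. OVOL1 (chr11:65554529-65564685, hg19) was at 11.2 FPKM in the OVOL1 line and 0.0700 FPKM in the OVOL2 line, against 0.0236 FPKM in PC3-EMT14 and 4.25 in PC3-Epi. Neither line showed the other factor at 1 FPKM or more. Which factor a line carries, how much of it, and which vector delivered it cannot be told apart, and reads from a transduced coding sequence cannot be separated from those of the resident gene.

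Most genes had close levels in both lines. Of 12188 genes with at least 1 FPKM in the higher line, 375 differed 2-fold or more, which is 3.08%. They comprised 232 higher genes (1.9%) and 143 lower genes (1.17%). These shares are the background for the counts of each gene list below. The lists and their members were chosen with earlier results of these data known, so a count above these shares can come in part from that choice. The median log2 ratio was -0.04 and the median size of the log2 ratio 0.15, and 93.1% of the genes above 0 in both lines lay within 1.5-fold. Short RNA entries, such as snoRNA and microRNA hairpins, made up a large part of the counted genes: 115 of 165 such entries passed 2-fold, or 69.7%. Without them, a choice made after the values were seen, 260 of 12023 genes passed 2-fold (2.16%), 196 higher (1.63%) and 64 lower (0.532%).

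Of the 75 counted genes that were listed at 0 in 1 of the lines, 73 were short RNA entries. The other two were PLAU, the urokinase gene, and C10orf55, which overlaps it. PLAU was listed at 0 in the OVOL1 line and at 2015 FPKM in the OVOL2 line, but the authors' software marked its locus as holding too many reads to be processed (status HIDATA), and PC3-EMT14 had 954 FPKM. No difference is read from either gene.

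**Figure D1:**
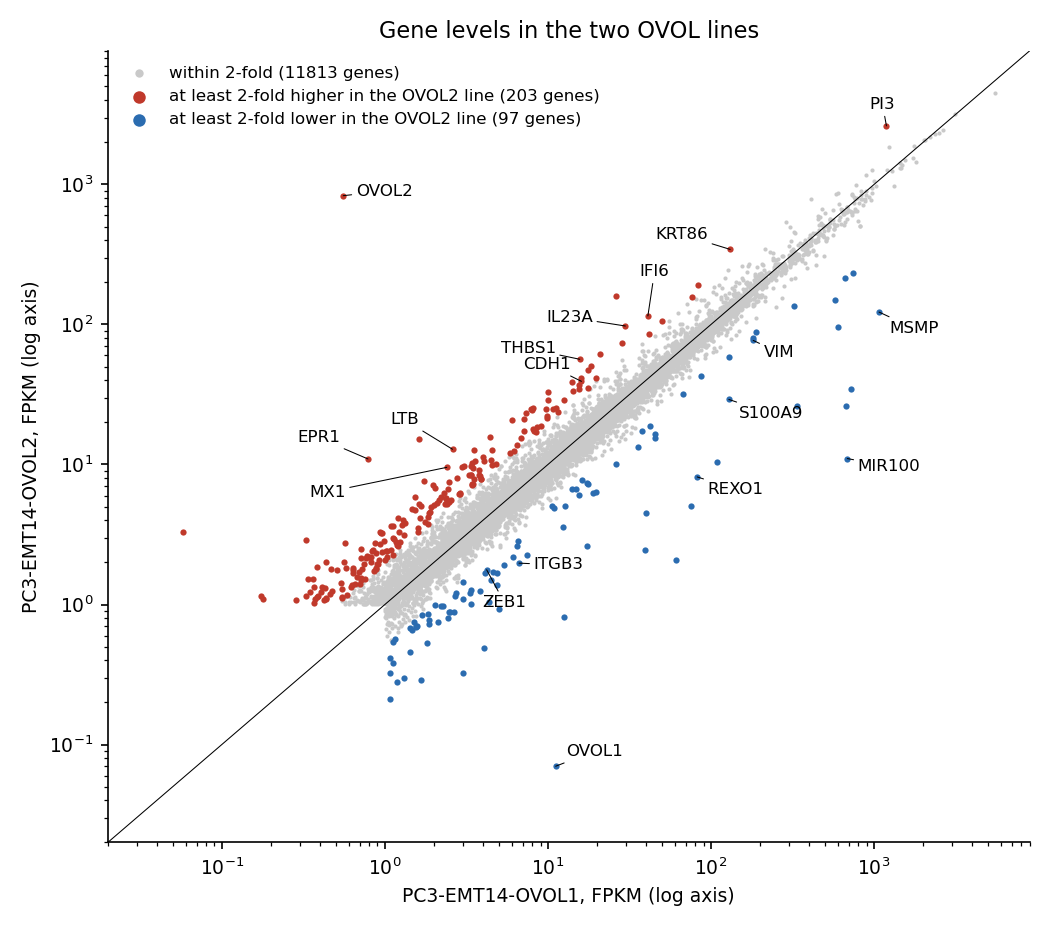
FPKM of each gene in PC3-EMT14-OVOL1 (x axis, log scale) against PC3-EMT14-OVOL2 (y axis, log scale), for the 12113 genes above 0 in both lines with at least 1 FPKM in the higher one; each point is 1 gene and the diagonal marks equal levels. The points hug the diagonal, with OVOL2 far above it at 0.556 and 831 FPKM, OVOL1 far below it at 11.2 and 0.0700 FPKM, and MSMP the most abundant named gene on the lower side.

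Interferon-stimulated genes made up the gene list with the largest share of higher members. Type I interferons signal through a receptor pair, the kinases JAK1 and TYK2 and a complex of transcription factors that includes STAT2 and IRF9, which binds the interferon response element and switches on antiviral genes. Of 29 listed genes at 1 FPKM or more, 18 were higher and 0 lower, where 1.9% of all genes were higher, and 28 of the 29 log2 ratios were above 0. The median log2 ratio of the list was 1.14, against -0.04 over all genes.

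The receptors and a kinase of that pathway stayed within 2-fold. The receptor gene IFNAR1 was at 15.5 and 13.8 FPKM in the OVOL1 and OVOL2 lines, and IFNAR2 at 13.1 and 9.02 FPKM. JAK1 was at 20.7 and 22.3 FPKM, and the interferon gene IFNB1 stayed under 1 FPKM in both lines, at 0.013 and 0.10 FPKM. These 4 genes were named after their values were seen. The transcription factors differed among themselves. STAT2, at 14.2 and 19.0 FPKM, stayed within 2-fold. IRF9, its DNA-binding partner, went from 10.1 FPKM in the OVOL1 line to 28.9 FPKM in the OVOL2 line, 2.87-fold higher. IRF7, an amplifier of interferon production, was 2.24-fold higher, at 9.81 and 22 FPKM.

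The RNA sensors were about 2-fold higher. DDX58, which encodes RIG-I, was at 3.42 and 7.17 FPKM, and IFIH1, which encodes MDA5, at 2.90 and 6.12 FPKM. PC3-EMT14 lay between the OVOL lines for DDX58, at 4.80 FPKM, and below both for IFIH1, at 1.84 FPKM.

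Effector genes showed the largest ratios of the list. MX1, a GTPase that blocks viral replication, was at 2.40 FPKM in the OVOL1 line and 9.54 FPKM in the OVOL2 line, 3.98-fold higher. PC3-EMT14 had 2.44 FPKM of MX1 and PC3-Epi 14.1 FPKM, so the OVOL1 line sat at the level of its parent and the OVOL2 line between parent and epithelial line. OAS2, one of the synthetases that activate RNase L, was 3.64-fold higher, at 3.5 and 12.7 FPKM, beside 4.70 FPKM in PC3-EMT14 and 15.0 in PC3-Epi. Its relatives OAS1 (14 and 38.6 FPKM) and OAS3 (11.5 and 23.6 FPKM) were higher as well.

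IFI6 was the most abundant of the counted interferon genes, at 41.0 FPKM in the OVOL1 line, 115 FPKM in the OVOL2 line, 48.0 FPKM in PC3-EMT14 and 165 in PC3-Epi. IFIT1, whose protein binds viral RNA, was 2.32-fold higher, at 12.5 and 29.0 FPKM; PC3-EMT14 had 20.01 FPKM, above the OVOL1 line. IFI27 (0.571 and 2.76 FPKM) and RSAD2 (0.434 and 2.01 FPKM) had the largest folds, 4.82 and 4.63, at low levels. IFITM1, a membrane protein that restricts viral entry, was 3.17-fold higher, and IFI44, IFI44L, SAMD9, BST2 and MX2 also passed 2-fold. The abundant ISG15 (168 and 263 FPKM) and IFITM3 (185 and 220 FPKM) did not, and IFITM2 was the 1 list member with a ratio below 0, at 148 and 131 FPKM.

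MHC class I genes, which interferon also induces, stayed within 2-fold. None of 12 passed, but all 12 log2 ratios were above 0, with a median of 0.31. HLA-B was at 92.7 and 134 FPKM.

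Promoters were read for the letters of known elements. A form of the interferon response element, GAAA followed by any 2 bases and GAAA again, was searched on both strands of the 250 bases before each RefSeq gene start, and was found in 3.02% of all 35116 promoters and 2.43% of the promoters of genes at 1 FPKM or more. Among the promoters of higher genes the share was 13.3% (22 of 166, from 122 genes). Among those of lower genes it was 1.64% (1 of 61, from 38 genes). Of 19 promoters matched to the counted interferon genes, from 14 genes, 14 held it. These promoters are part of the 166, so the counts are not separate observations. The promoters of IFIT1 (chr10:91152130-91152379, plus strand) and IFI6 (chr1:27998704-27998953, minus strand; GRCh37, the assembly of hg19) are shown because their genes are among the more abundant of the group. Capitals mark the element, which occurs in 2 places in IFIT1, both read on the opposite strand, and in 3 places in IFI6.

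IFIT1: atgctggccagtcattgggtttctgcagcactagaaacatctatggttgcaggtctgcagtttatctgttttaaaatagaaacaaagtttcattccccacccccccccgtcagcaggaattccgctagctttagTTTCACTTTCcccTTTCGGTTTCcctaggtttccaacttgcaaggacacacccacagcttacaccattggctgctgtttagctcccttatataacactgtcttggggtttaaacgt
IFI6: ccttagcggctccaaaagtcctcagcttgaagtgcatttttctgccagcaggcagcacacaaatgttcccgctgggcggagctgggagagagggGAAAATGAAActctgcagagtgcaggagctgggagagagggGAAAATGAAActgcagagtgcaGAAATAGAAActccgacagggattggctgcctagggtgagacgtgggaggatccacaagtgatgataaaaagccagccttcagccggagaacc

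Genes of the NF-kB pathway and its cytokines formed the next group. NF-kB is kept in the cytoplasm by inhibitors such as NFKBIA and, once released, drives inflammatory cytokines together with its own feedback inhibitors. Of 26 listed genes at 1 FPKM or more, 10 were higher and 0 lower, where 1.9% of all genes were higher and 1.17% lower, and the median log2 ratio was 0.83. NFKB1 itself was at 10.1 and 11.1 FPKM, while NFKBIA (29.1 and 47.0 FPKM) and RELB (4.30 and 7.71 FPKM) were higher by less than 2-fold.

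Some genes that restrain or modulate the pathway passed the threshold. TNFAIP3, which encodes the ubiquitin-editing enzyme A20, was 2.73-fold higher, at 2.43 and 6.63 FPKM, beside 1.83 FPKM in PC3-EMT14 and 2.06 in PC3-Epi. BIRC3, an inhibitor of apoptosis, was at 4.48 and 10.7 FPKM, and the adaptor TRAF1 at 0.179 and 1.09 FPKM. For TNFAIP3, BIRC3 and TRAF1 the OVOL2 line had the highest value of the 4 lines.

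Among the secreted members, LTB, which encodes lymphotoxin beta, had the largest fold among higher genes of at least 5 FPKM after OVOL2 and EPR1, leaving out short RNAs. It was at 2.60 FPKM in the OVOL1 line and 12.8 FPKM in the OVOL2 line, 4.94-fold higher, against 0.186 FPKM in PC3-EMT14 and 2.94 in PC3-Epi. The cytokine IL32 was at 18.2 and 50.8 FPKM, IL6 at 8.13 and 17.9 FPKM, and the chemokine CXCL3 at 15.4 and 37.1 FPKM. The complement component C3 was 2.98-fold higher, at 7.12 and 21.2 FPKM. The low CCL20 and CXCL5 also passed 2-fold, while the abundant IL8 (288 and 538 FPKM) and CXCL1 (303 and 496 FPKM) fell short of it. IL1B was alike in both lines, at 757 and 737 FPKM.

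Beyond the list, 3 more cytokine genes were among the largest folds. IL23A, the specific subunit of interleukin 23, was at 29.8 FPKM in the OVOL1 line and 97.5 FPKM in the OVOL2 line, beside 6.07 FPKM in PC3-EMT14 and 7.27 in PC3-Epi. IL24, a cytokine of the IL-10 family, was 4.41-fold higher (1.74 and 7.67 FPKM), and TNFSF15, a TNF family ligand, 3.36-fold higher (2.03 and 6.83 FPKM). For these cytokines both OVOL lines were above PC3-EMT14, and the OVOL2 line was the higher of the pair.

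A form of the NF-kB site, GGGA followed by any 2 bases and TTCC, occurred in 1.4% of all promoters, in 6.63% of the promoters of higher genes (11 of 166) and in 0 of 61 promoters of lower genes. Of the 13 promoters matched to the counted genes of the NF-kB list, from 9 genes, 7 held it. They too are part of the 166 promoters of higher genes. The promoter of LTB (chr6:31550203-31550452, minus strand, GRCh37) is shown because LTB has the largest fold of that list above 5 FPKM, with the 1 match in capitals.

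LTB: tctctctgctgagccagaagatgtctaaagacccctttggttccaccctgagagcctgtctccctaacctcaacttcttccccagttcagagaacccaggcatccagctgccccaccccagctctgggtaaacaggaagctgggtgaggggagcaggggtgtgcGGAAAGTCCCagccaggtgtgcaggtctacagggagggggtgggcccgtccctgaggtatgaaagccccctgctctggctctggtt

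**Figure D2:**
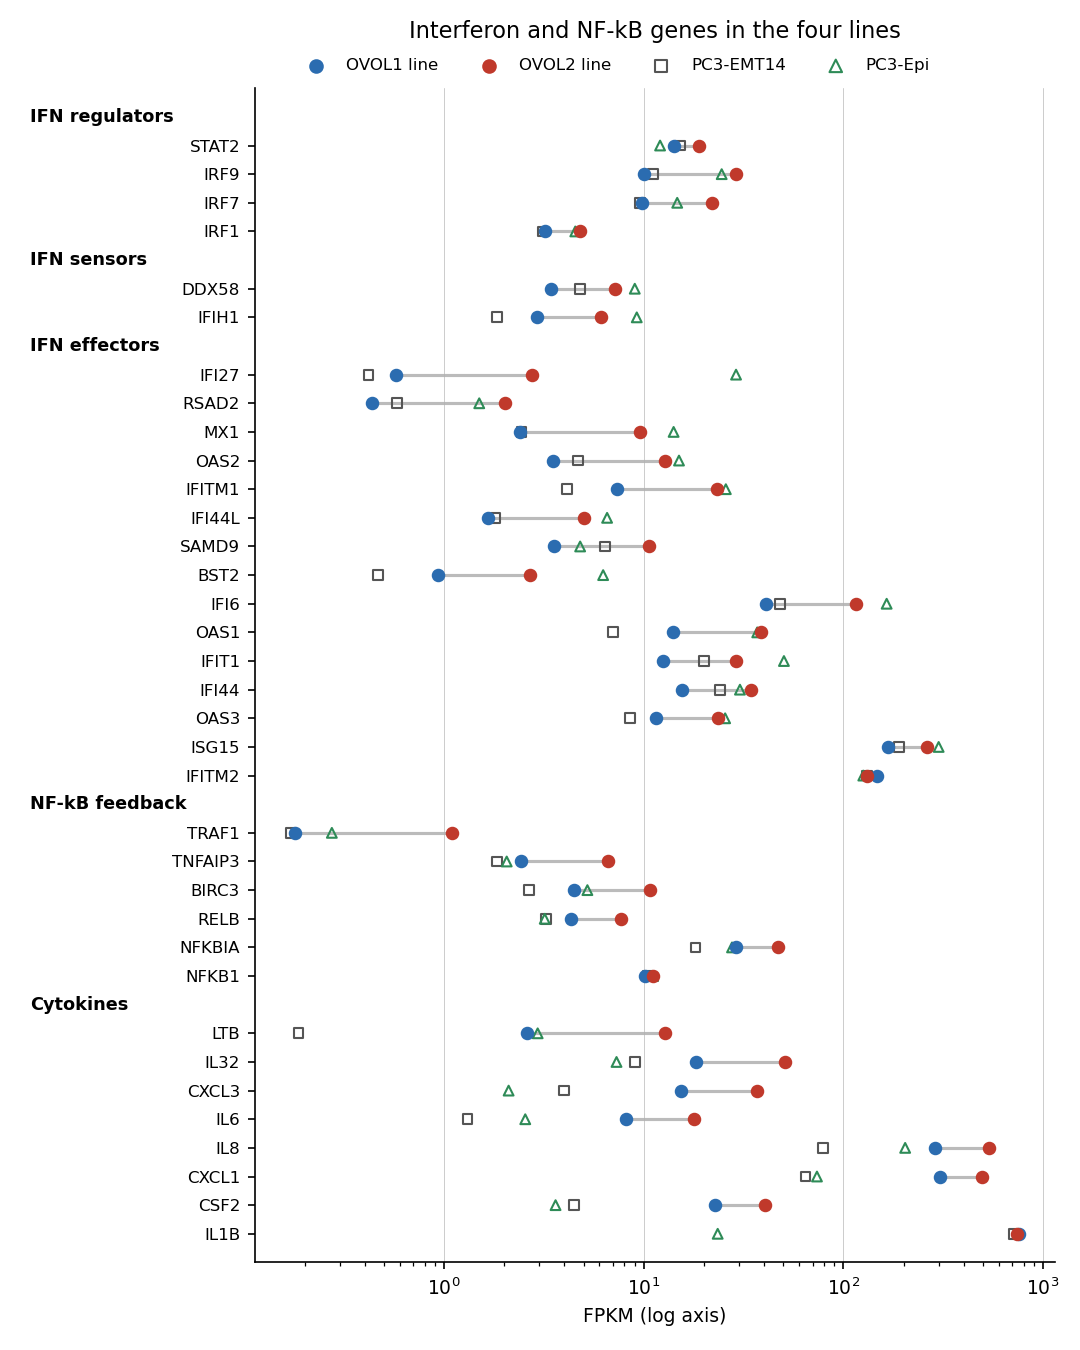
FPKM (x axis, log scale) of interferon and NF-kB genes in the OVOL1 line, the OVOL2 line, PC3-EMT14 and PC3-Epi, 1 pooled value for each line; grey bars join the OVOL lines. MX1 sits at 2.40 FPKM in the OVOL1 line, next to PC3-EMT14, and at 9.54 FPKM in the OVOL2 line, whereas IL1B and IFITM2 barely separate the OVOL lines.

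Cell junction genes were higher in the OVOL2 line in part. Of 20 adherens and tight junction genes at 1 FPKM or more, 5 were higher and 0 lower, beside 1.9% and 1.17% of all genes. Their median log2 ratio was 0.53. CDH1 (E-cadherin), the adhesion protein that defines adherens junctions, was at 16 FPKM in the OVOL1 line and 39.2 FPKM in the OVOL2 line, 2.45-fold higher. PC3-EMT14 had 0.971 FPKM and PC3-Epi 50.6 FPKM, so both OVOL lines were well above the parent. The tight junction gene CLDN7 (claudin 7) was at 28.3 and 73.8 FPKM, between 11.5 FPKM in PC3-EMT14 and 92.3 in PC3-Epi.

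MARVELD3 (0.877 and 2.34 FPKM) and CGN (1.89 and 4.60 FPKM), both of tight junctions, were also higher. Just under 2-fold stood CDH3 (P-cadherin), at 19.7 and 39.2 FPKM, with EPCAM at 86.6 and 151 FPKM and OCLN (occludin) at 6.37 and 11.2 FPKM. The catenin CTNNB1 (86.6 and 84.6 FPKM) was alike in both lines, and so was the entry shared by CTNND1 and TMX2 (120 and 116 FPKM). None of 11 desmosome and plakin genes passed 2-fold, with a median log2 ratio of 0.24. JUP (plakoglobin), at 26.3 and 46.0 FPKM, had the largest ratio of them.

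Apical polarity genes had 4 higher and 0 lower of 20, beside 1.9% and 1.17% of all genes, with a median log2 ratio of 0.44. CRB3, a Crumbs protein that sets the apical membrane, was at 15.9 FPKM in the OVOL1 line and 41.5 FPKM in the OVOL2 line, against 0.525 FPKM in PC3-EMT14 and 49.1 in PC3-Epi. EPS8L1 was 2.67-fold higher, at 2.20 and 5.87 FPKM, followed by AP1M2, the epithelial subunit of a sorting adaptor, and CBLC. Widely expressed polarity genes such as PARD3 (37.3 and 38.0 FPKM), PRKCI (18.1 and 15.6 FPKM) and DLG1 (18.0 and 16.3 FPKM) showed little difference.

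Keratins, the epithelial intermediate filaments, had a median log2 ratio of 0.66 over 12 genes. Of these, 2 were higher and 0 lower, beside 1.9% and 1.17% of all genes. KRT86 was at 131 and 343 FPKM, but it is a hair keratin with a near-identical neighbour, so its reads are uncertain. KRT6A was at 7.85 and 25.1 FPKM. The simple epithelial keratins KRT7 (410 and 786 FPKM) and KRT8 (127 and 244 FPKM) came close to 2-fold. KRT75, which is not on the list, went the other way, at 189 and 88.6 FPKM.

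Of 13 epithelial proteases and inhibitors 1 was higher, and the list's median log2 ratio was 0.59. PI3 (elafin), a secreted protease inhibitor, was the most abundant counted gene of 1 symbol on the higher side. It was at 1190 FPKM in the OVOL1 line and 2618 FPKM in the OVOL2 line, with 231 FPKM in PC3-EMT14 and 265 in PC3-Epi. The ion transport regulator FXYD3, at 17.6 and 47.1 FPKM, was the 1 of 14 epithelial surface genes past 2-fold. The membrane protease ST14 (matriptase) reached 28.6 and 55.8 FPKM, just under 2-fold, far above 0.515 FPKM in PC3-EMT14 and below 135 FPKM in PC3-Epi.

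Letters of an E-box, CAGGTG, to which ZEB1 and Snail family proteins are known to bind, lay in 17.5% of all promoters, in 15.6% of those of genes at 1 FPKM or more, in 31.3% of those of higher genes (52 of 166) and in 21.3% of those of lower genes (13 of 61). Of the 9 counted junction and polarity genes, 5 were matched, with 7 promoters, and 4 of these promoters held it, those of AP1M2, CLDN7, CRB3 and EPS8L1. The promoter of CRB3 (chr19:6464032-6464281, plus strand, GRCh37) is shown for its 5 matches, in capitals. The OVO core CCGTTA, bound by proteins of the OVO family, lies directly before 1 of them, without overlap, and is in lower case. That core was found in 2.45% of all promoters and 3.09% of those of genes at 1 FPKM or more. Among promoters of higher genes its share was 1.81% (3 of 166), and among those of lower genes 1.64% (1 of 61). The longer OVOL consensus used by the study was found in 0.877%, 0.385%, 1.81% (3 of 166) and 0% (0 of 61), respectively.

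CRB3: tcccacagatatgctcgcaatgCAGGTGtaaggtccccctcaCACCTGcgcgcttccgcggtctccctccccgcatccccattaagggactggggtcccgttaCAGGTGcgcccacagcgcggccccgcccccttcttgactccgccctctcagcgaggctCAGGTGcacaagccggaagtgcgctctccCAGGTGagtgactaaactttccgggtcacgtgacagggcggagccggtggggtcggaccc

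Of the transcription factors that govern the epithelial state, 12 were at 1 FPKM or more, with a median log2 ratio of 0.36; 3 were higher, OVOL2 and GRHL3 among them, and OVOL1 was lower. GRHL3, a grainyhead factor of surface epithelia, was at 0.467 and 1.79 FPKM. EHF, an epithelial ETS factor, was at 2.28 and 4.48 FPKM, a little under 2-fold. KLF5 (25 and 29.6 FPKM) and FOXA1 (55.1 and 53.9 FPKM) were close in both lines.

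Among 6 EMT transcription factors at 1 FPKM or more, ZEB1 was lower and none was higher. ZEB1 was at 4.21 FPKM in the OVOL1 line and 1.77 FPKM in the OVOL2 line, 2.38-fold lower, with 7.36 FPKM in PC3-EMT14 and 0.130 in PC3-Epi. With a pseudocount of 1 FPKM the log2 ratio of ZEB1 was -0.91, short of 2-fold. SNAI1 had 2.64 FPKM in both lines, SNAI2 (Slug) 1.45 and 1.8 FPKM, and TWIST1 5.20 and 5.15 FPKM. The factors other than ZEB1 thus hardly set the OVOL lines apart.

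Vimentin was the most abundant mesenchymal marker past 2-fold. VIM, the mesenchymal intermediate filament, was at 181 FPKM in the OVOL1 line and 76.9 FPKM in the OVOL2 line, 2.36-fold lower, between 262 FPKM in PC3-EMT14 and 42.5 in PC3-Epi. CDH2 (N-cadherin), at 13.2 and 10.1 FPKM, and FN1 (fibronectin), at 18.2 and 16.5 FPKM, stayed within 2-fold. SPARC, a matrix glycoprotein, was at 4.87 and 1.68 FPKM, and L1CAM, the 1 of 8 mesenchymal adhesion genes past 2-fold, went the other way, at 1.14 and 2.94 FPKM. Of 12 genes for vimentin and the contractile cytoskeleton, VIM was the only one past 2-fold, and the list's median log2 ratio was 0.01.

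**Figure D3:**
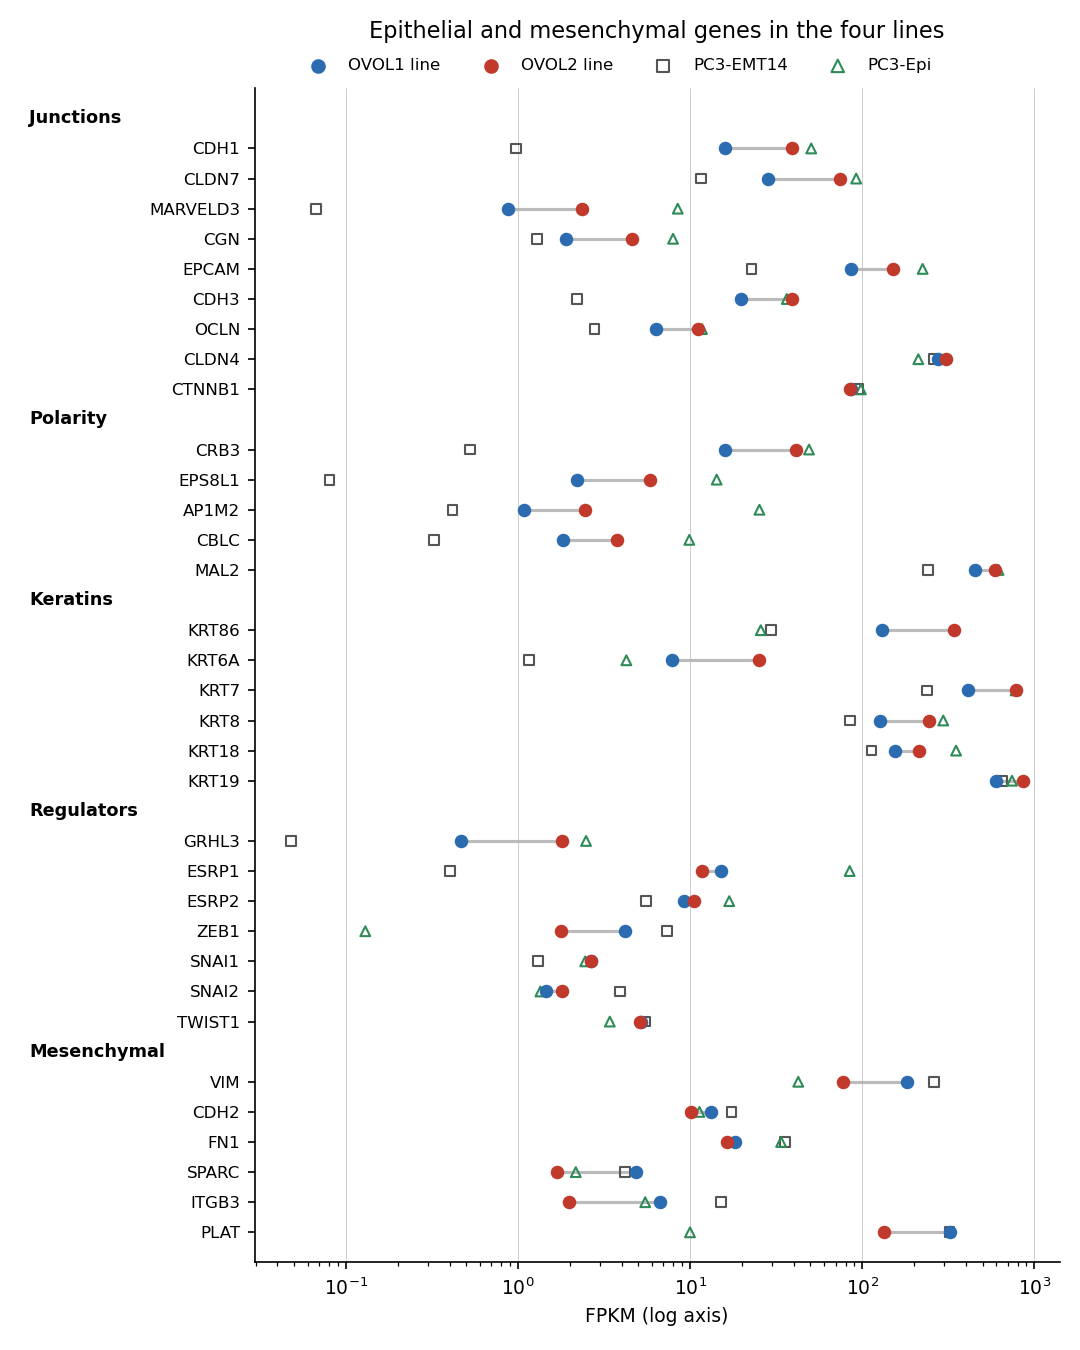
FPKM (x axis, log scale) of junction, polarity, keratin, regulator and mesenchymal genes in the OVOL1 line, the OVOL2 line, PC3-EMT14 and PC3-Epi, 1 pooled value for each line; grey bars join the OVOL lines. CDH1, CLDN7 and CRB3 lie nearer to PC3-Epi in the OVOL2 line than in the OVOL1 line, ZEB1 and VIM lie lower, and SNAI1, TWIST1 and CTNNB1 coincide.

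Lists that the study had drawn from expression across other cancer cell lines were counted too. The 22 genes at 1 FPKM or more that correlate positively with both OVOL genes had a median log2 ratio of 0.98. Of them, 10 were higher and 1 was lower, beside 1.9% and 1.17% of all genes. That count includes OVOL2 as a higher and OVOL1 as a lower gene, and CDH1, CLDN7, MARVELD3 and CBLC, described above. Further higher genes of it were TMEM30B (9.84 and 21.5 FPKM), TMEM125 (1.11 and 3.00 FPKM), CCDC64B (1.60 and 3.28 FPKM) and the Eph receptor EPHA1 (2.86 and 6.16 FPKM). Of 18 genes that correlate negatively, ZEB1 and VIM were lower, none was higher, and 17 of the 18 log2 ratios were below 0, with a median of -0.53. These lists were not chosen on the samples of the series. The study's cutoff on the correlation was stricter for the positive list than for the negative list, so their medians are not directly comparable.

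Of 21 integrin and laminin genes, 3 were higher and 1 was lower, beside 1.9% and 1.17% of all genes, with a median log2 ratio of 0.13. LAMA3 and LAMB3 encode laminin chains of the epithelial basement membrane. LAMA3 was at 76.6 and 158 FPKM, and LAMB3 at 82.7 and 193 FPKM. In PC3-EMT14 they stood at 64.1 and 70.8 FPKM, close to the OVOL1 line, and in PC3-Epi at 63.7 and 49.8 FPKM, so the OVOL2 line had the highest value of the 4 lines for both. The epithelial laminin receptor subunits ITGA6 (56.2 and 52.9 FPKM) and ITGB4 (207 and 269 FPKM) stayed within 2-fold. ITGB3, the beta subunit of a vitronectin receptor, was 3.37-fold lower, at 6.64 and 1.97 FPKM.

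THBS1 (thrombospondin), a matrix protein that can activate latent TGF-beta, was at 15.7 FPKM in the OVOL1 line and 56.4 FPKM in the OVOL2 line, with 6.09 FPKM in PC3-EMT14 and 126 in PC3-Epi. Of 23 collagen and matrix genes it was the only higher one, and SPARC and HAPLN1 (1.42 and 0.458 FPKM) were lower, beside the same shares of all genes. The list's median log2 ratio was -0.14.

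Of the plasminogen system, which dissolves fibrin and matrix, the activator PLAT was 2.39-fold lower, at 322 and 134 FPKM. PC3-EMT14 had 322 FPKM of it and PC3-Epi 9.99 FPKM. PLAUR, the receptor of urokinase, was at 45.8 and 58.9 FPKM. The metalloproteases MMP9 (0.403 and 1.23 FPKM) and MMP10 (0.918 and 2.06 FPKM) passed 2-fold at low levels, and MMP14 (57.5 and 72.0 FPKM) did not. Over 17 matrix protease genes the median log2 ratio was 0.31, with 3 higher and 2 lower, beside 1.9% and 1.17% of all genes. The 3 are MMP9, MMP10 and PLAU, and no difference is read from PLAU, whose locus held too many reads to be processed.

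In the TGF-beta and BMP pathway, 3 of 21 genes were higher and 0 lower, beside 1.9% and 1.17% of all genes. Their median log2 ratio was 0.15. Among ligands, TGFB2 was 3.03-fold higher (3.4 and 10.3 FPKM) and BMP4 2.16-fold higher (2.89 and 6.23 FPKM), while TGFB1 was at 44.3 and 34.9 FPKM. The receptors TGFBR1 (4.91 and 4.36 FPKM) and TGFBR2 (33.6 and 34.2 FPKM) differed little. Of the target genes, ID3, an inhibitor of bHLH factors, was at 2.34 and 5.18 FPKM, and ID1 at 71.2 and 140 FPKM was just short of 2-fold.

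Of 12 targets of the Hippo effectors YAP and TAZ, 9 had a log2 ratio above 0, and the list's median was 0.19. ANKRD1 was higher (1.20 and 4.13 FPKM), CTGF was lower (26.2 and 10.1 FPKM), and CYR61, the most abundant, was at 192 and 257 FPKM. In the FGF, IGF and Eph group of 23, EPHA1 was higher, and SPRY4, a feedback inhibitor of FGF signalling, was lower (17.4 and 7.41 FPKM) together with the low IGFBP1. FGFR1 was at 8.18 and 5.27 FPKM. WNT10A (0.728 and 1.79 FPKM) was the 1 of 20 Wnt and Notch genes past 2-fold. Over all genes 1.9% were higher and 1.17% lower, so these few members say little about their lists. ATF3, a stress-induced transcription factor, was 3.31-fold higher, at 9.97 and 33.0 FPKM, while HSPB8, a small heat shock protein, was lower (1.66 and 0.291 FPKM); they were the 2 of 18 heat shock and stress genes past 2-fold.

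Lower genes were fewer than higher genes at 2-fold, but at 4-fold 70 genes were lower and 44 higher. Short RNA entries made up 79 of the 143 genes lower at 2-fold. Of the 70 lower at 4-fold, 46 were short RNA entries listed at 0 in the OVOL2 line, and further short RNAs such as MIR100 and SNORD55 were among the rest. Of the 44 higher at 4-fold, 29 were listed at 0 in the OVOL1 line, all of them short RNA entries except PLAU and C10orf55. Leaving short RNA entries out, the lower genes of 1 symbol and at least 5 FPKM past 4-fold were OVOL1, REXO1, MSMP, LITAF and S100A9. Several lower genes were abundant. MSMP, which encodes a secreted prostate-associated microseminoprotein, was at 1072 FPKM in the OVOL1 line and 123 FPKM in the OVOL2 line, 8.75-fold lower, beside 1535 FPKM in PC3-EMT14 and 192 in PC3-Epi. S100A9, a calcium-binding protein of calprotectin, was 4.42-fold lower, at 129 and 29.1 FPKM, and the only one of 11 S100 and cornified envelope genes past 2-fold. Its order over the lines was different from that of MSMP: PC3-EMT14 had 1.70 FPKM and PC3-Epi 304 FPKM, so both OVOL lines were above the parent and the OVOL1 line was the nearer to PC3-Epi. LITAF (5.04 and 0.929 FPKM) and the hypoxia gene CA9 (3.82 and 1.24 FPKM) had the same order, with 0.458 and 0.387 FPKM in PC3-EMT14 and 21.7 and 44.9 FPKM in PC3-Epi.

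HOXB13, a homeobox factor of the prostate lineage, was 2.11-fold lower (66.9 and 31.7 FPKM), the only one of 8 genes of that lineage past 2-fold. CRABP1, a retinoic acid binding protein, was at 182 and 79.4 FPKM, HPGD, which degrades prostaglandins, at 87.0 and 42.7 FPKM, and F2R, a thrombin receptor, at 35.6 and 13.3 FPKM. ESM1 (19.8 and 6.38 FPKM) and the homeobox gene GBX2 (19.0 and 6.22 FPKM) were about 3-fold lower. HOXB13, HPGD, ESM1 and GBX2 had their highest value in PC3-EMT14, and F2R had its highest in the OVOL1 line. For CRABP1 the OVOL1 line was level with PC3-EMT14, which had 183 FPKM.

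The higher genes with the largest folds outside these groups were PTPRR, a tyrosine phosphatase that acts on MAP kinases (1.53 and 5.86 FPKM), PRRG2 (1.98 and 7.12 FPKM), ARL14, a small GTPase (4.39 and 15.7 FPKM), C1orf116 (6.03 and 20.7 FPKM) and ATP2C2, a calcium pump of the secretory pathway (2.95 and 9.57 FPKM).

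Some large ratios belong to entries whose reads are hard to assign. REXO1 had 82.3 and 8.15 FPKM, but 74.2 FPKM of the value in the OVOL1 line came from an isoform entry of the microRNA MIR1909 within it. EPR1, at 0.787 and 10.9 FPKM, overlaps BIRC5 on the other strand; BIRC5 was at 118 and 103 FPKM, and the sources used here do not say that reads were counted by strand. Among the short RNAs named by fold, MIR100 went from 685 to 11.0 FPKM and SNORD88B from 1.61 to 15.1 FPKM.

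Several gene groups did not separate the lines. None of 24 cell cycle genes passed 2-fold, with a median log2 ratio of 0.03; MKI67 was at 15.0 and 18.3 FPKM and CCNB1 at 55.9 and 58.0 FPKM. None of 15 cholesterol and fatty acid synthesis genes passed either, although 13 of them had a ratio below 0 and the median was -0.24, with SCD the farthest at 103 and 64.0 FPKM. None of 15 reference genes passed, with a median of -0.04. Of 18 hypoxia and glycolysis genes, CA9 was the only one past 2-fold, and their median was -0.18.

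Markers of macrophages were checked because PC3-EMT14 had been isolated from a culture with macrophages. CD68, a lysosomal protein, was the only one of 14 at 1 FPKM or more, at 50.7 and 57.8 FPKM. The other markers together, PTPRC, CD14 and CSF1R among them, summed to 0.710 FPKM in the OVOL1 line and 0.994 FPKM in the OVOL2 line, and TYROBP and C1QA were listed at 0 in both.

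**Figure D4:**
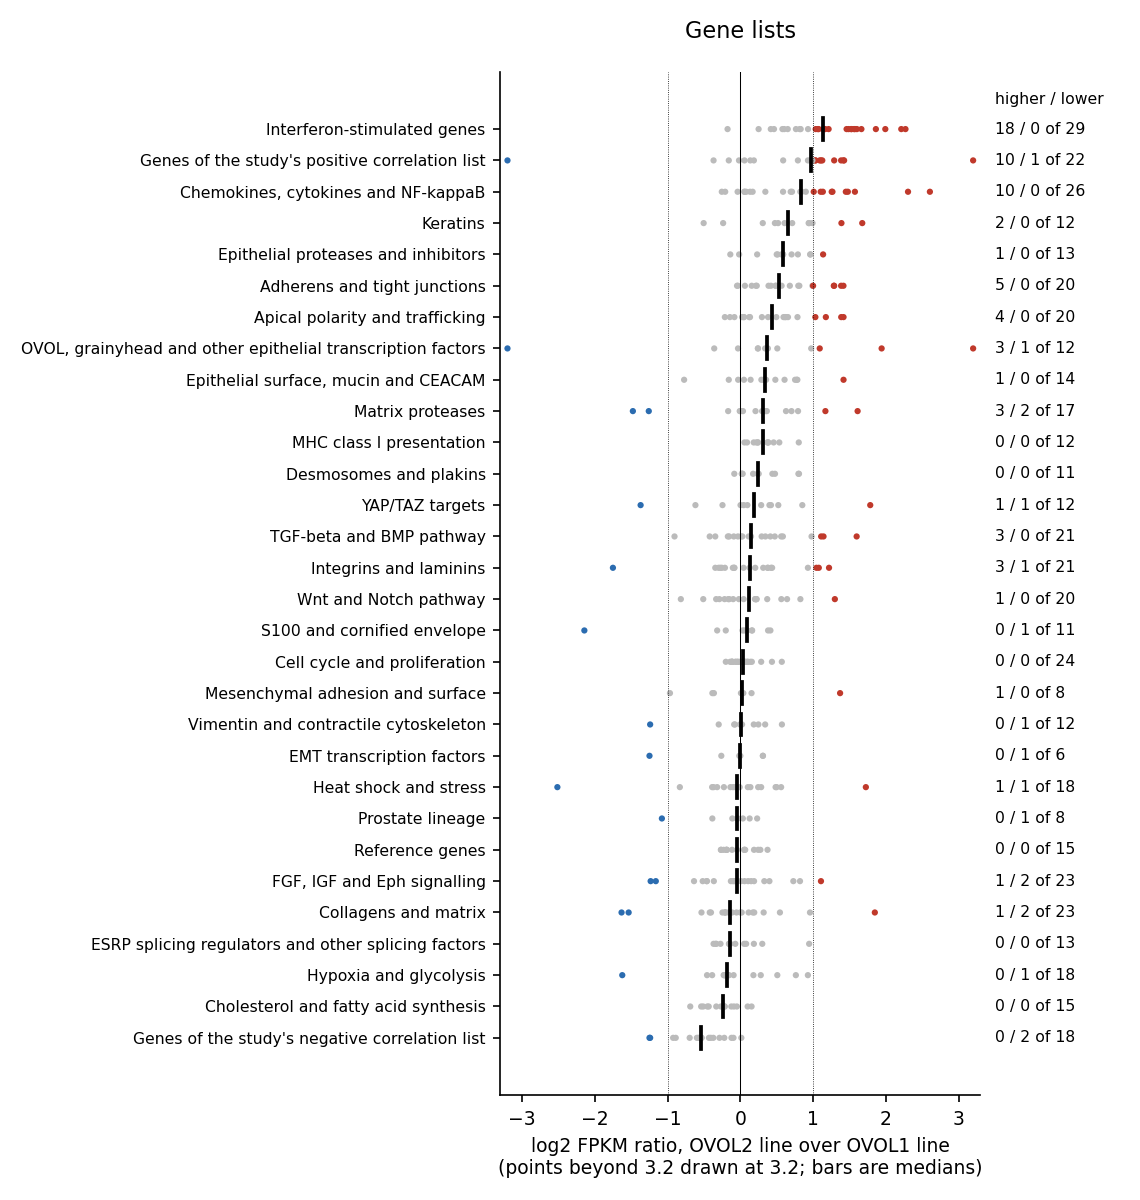
log2 ratio of FPKM, OVOL2 line over OVOL1 line (x axis), for each member at 1 FPKM or more of each gene list (rows), with the list median as a black bar and, at the right, the number of members at least 2-fold higher and lower. Interferon-stimulated genes lead with 18 of 29 higher and a median of 1.14, and the reference and cell cycle genes cluster around 0; OVOL1 and OVOL2 lie beyond 3.2 and are drawn there, and PLAU is counted among the matrix proteases but has no point because it is listed at 0 in the OVOL1 line.

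Medians along the genome lay close to 0. The median log2 ratio of a chromosome ran from -0.09 (chromosome 5) to 0.01 (chromosome 19) over 23 chromosomes. In 230 blocks of 50 neighbouring genes it ran from -0.23, on chromosome 6 from 111804675 to 133138703 (hg19), to 0.11, on chromosome 19 from 4445003 to 7553905. The most higher genes in a block were 6 of 50, with 0 lower, on chromosome 1 from 202848086 to 209908295 and on chromosome 17 from 37026112 to 40021629. Stretches of fewer genes were not examined.

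The splicing regulators did not differ 2-fold. ESRP1 and ESRP2 promote the epithelial forms of many transcripts. ESRP2 was at 9.21 and 10.5 FPKM. ESRP1 was at 15.1 and 11.7 FPKM, above 0.402 FPKM in PC3-EMT14 and below 84.6 FPKM in PC3-Epi, but the software failed to complete the comparison for it (status FAIL). Of 13 splicing factors, 0 passed 2-fold.

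Isoform levels were less certain than gene levels. Of 16123 isoforms at 1 FPKM or more in the higher line, 876 differed 2-fold or more (5.43%), 465 higher (2.88%) and 411 lower (2.55%), and 478 of the 876 belonged to genes that did not pass 2-fold. The share of an isoform is its FPKM as a percentage of the summed isoforms of its gene entry, which can hold more than 1 gene. Shares were compared over the 3555 genes with more than 1 isoform and a sum of at least 5 FPKM in both lines. The median of the largest shift in a gene was 2.43 percentage points, and 35 genes (0.985%) had an isoform that shifted by at least 25 points. Of the 35 isoforms, 21 had too little evidence for the authors' software to test (status NOTEST) and 3 had status FAIL.

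Among the genes chosen for their isoforms, the shares were close in both lines for some and not for others. For CD44, a hyaluronan receptor with epithelial variant forms, the largest shift was from 28.1% to 25.4%, where PC3-EMT14 had 4.99% and PC3-Epi 46.9%. For ENAH, an actin regulator, it was from 43.8% to 41.2%, where PC3-EMT14 had 15.7% and PC3-Epi 66.1%. In both genes the OVOL lines lay together between the parent and the epithelial line. EPB41L5 had 21.9% and 13.9%, against 53.0% in PC3-EMT14 and 7.55% in PC3-Epi, at a sum under 5 FPKM.

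For CTNND1 the largest shift was an increase of 3.4 points, for LGALS8 it was a decrease of 2.79 points, and for GPR126 a decrease of 0.986 points. The CTNND1 entry also holds TMX2, and its sums of 120 and 116 FPKM include both, so its shares are not those of CTNND1 alone. An isoform of IP6K2 went from 28.4% to 18.1%. The isoform of FGFR1 with the largest shift, status NOTEST, was at 25.1% in the OVOL1 line and listed at 0 in the OVOL2 line, at a summed level of 8.18 and 5.27 FPKM. FGFR2 was under 0.1 FPKM in both lines, so its shares carry no information.

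The largest shifts lay in other genes. An isoform of CORO1B, an actin-binding coronin, made up 79.2% of the gene in the OVOL1 line and 8.99% in the OVOL2 line, with 57.7% in PC3-EMT14 and 86.6% in PC3-Epi; the sum over its isoforms was 49.6 and 55.7 FPKM, and the isoform has status NOTEST. An isoform of S100A13, a calcium-binding protein, went from 8.38% to 66.0%, with 15.6% in PC3-EMT14 and 1.08% in PC3-Epi, at sums of 194 and 187 FPKM. An isoform of NUDT1, which removes oxidized nucleotides, went from 2.25% to 43.4%. In these 3 genes the OVOL2 line stood apart from the other 3 lines while the gene's summed level was close in both OVOL lines. An isoform of SLC44A2, a choline transporter, had 59.6% and 18.9%, between 83.0% in PC3-EMT14 and 1.64% in PC3-Epi, also with status NOTEST. MIR1909, FLJ39653, TGFBRAP1, FAM3C, RPL18AP3, NDUFC1, SLC37A4 and NRGN completed the 12 largest shifts, of 38.4 to 90.2 points in size. The isoform entries carry assembly numbers in place of transcript accessions, so the exons behind these shares are not named.

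**Figure D5:**
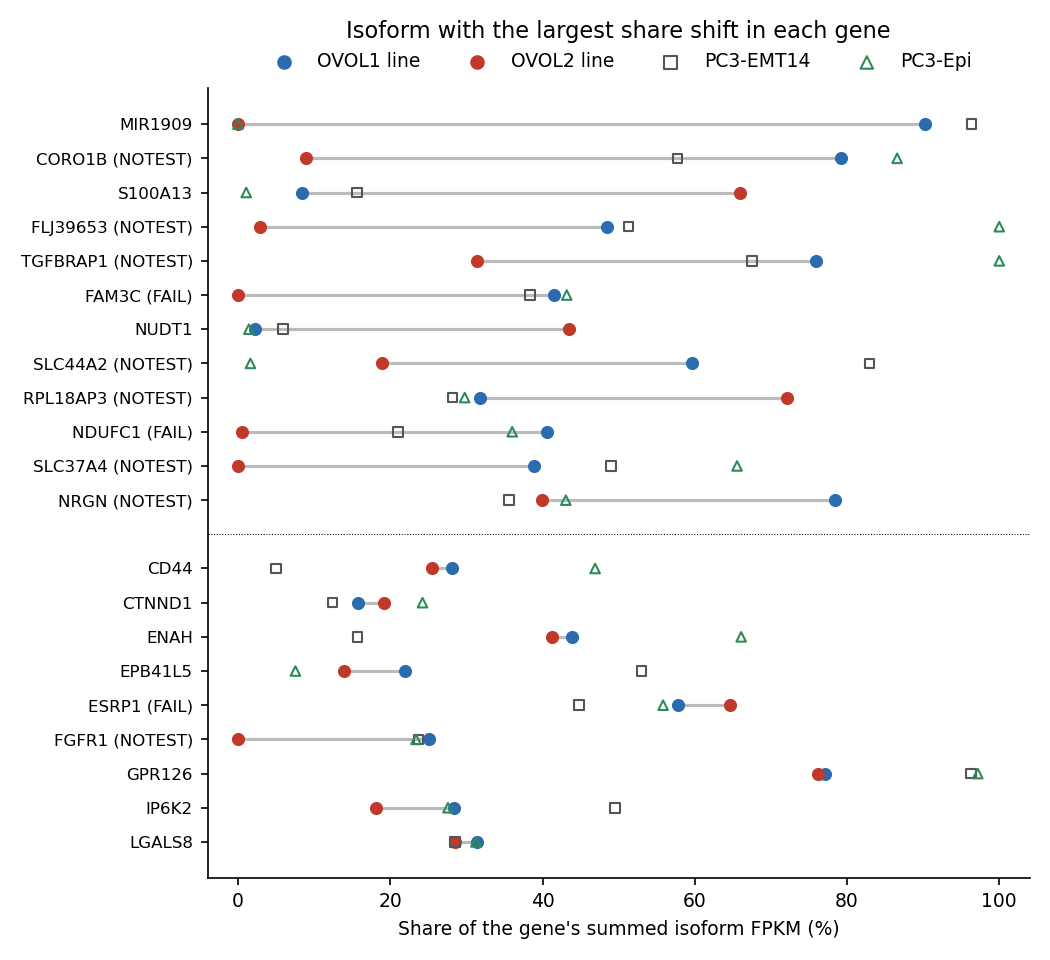
Share of the gene's summed isoform FPKM (x axis, percent) for the isoform with the largest shift in each gene, in the OVOL1 line, the OVOL2 line, PC3-EMT14 and PC3-Epi; the 12 largest shifts stand above the dotted line and the named splicing genes below it, NOTEST marks isoforms with too little evidence for the authors' software to test, and FAIL those whose comparison it did not complete. The NOTEST isoform of CORO1B moves from 79.2% to 8.99% between the OVOL lines, whereas the OVOL lines nearly coincide for CD44, ENAH, GPR126 and LGALS8. The sum for CTNND1 includes isoforms of TMX2, and that for MIR1909 includes REXO1.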

How the data were processed

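Per the study's methods, pairs of reads were placed on the hg19 transcriptome (UCSC) with TopHat, and Cuffdiff estimated levels with upper-quartile scaling, compatible-hits normalization and corrections for bias and multi-mapped reads. The authors deposited FPKM values as 1 pooled value per line in each table, so depth and spread are unknown. The tables also hold their fold changes, test statistics, p-values and q-values, which were not used. The software's status was read as deposited.

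Ratios without pseudocount, isoform shares and counts were computed in Python 3.11.15 with pandas 2.3.3 and checked on simulated levels with known folds. Named genes were OVOL1 and OVOL2, the 15 largest folds in each direction (at least 5 FPKM in the higher line, above 0 in the other, 1 symbol), the 10 most abundant counted genes in each direction, members of 31 gene lists, the 12 largest share shifts and 11 genes chosen for their isoforms. The same ranks were also taken without short RNA entries, after their values were seen, and IFNAR1, IFNAR2, JAK1, IFNB1 and BIRC5 were named after theirs were seen. The members and the lists were chosen with earlier results of these data known. Promoters are those of RefSeq (GRCh38.p14), matched by symbol for 160 of 372 counted symbols and placed on GRCh37 by exact sequence. Alternatives changed the floor, the fold, the pseudocount, the centring, the status filter and the source of the ratio. Some genes that meet the naming rule are not reported here.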

Additional observations from a re-analysis of the deposited data

How the results depend on the processing

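No paired analysis was possible because each line has 1 pooled value and no column per sample; leaving out a replicate was not possible for the same reason. The genes past 2-fold numbered 375 (232 higher, 143 lower). With no floor on the level they numbered 3049 (2080 and 969), with a floor of 5 FPKM 210 (117 and 93), at 1.5-fold 910 (578 and 332), at 4-fold 114 (44 and 70), and with a pseudocount of 1 FPKM 227, of which 124 were higher. Without short RNA entries, an alternative chosen after seeing the data, 64 were lower. Centring on the median, a pseudocount of 0.1 FPKM, status OK only, summed isoforms and ratios through PC3-EMT14 stayed within 1.5 times of each count; the last is not independent, because the tables repeat the same pooled values up to a scale. The 876 isoforms past 2-fold became 346 with a floor of 5 FPKM, 315 at 4-fold, 488 with a pseudocount of 1 FPKM and 568 with status OK only. A shift of at least 40 points left 10 of the 35 genes with a share shift. A pseudocount of 1 FPKM took the median log2 ratio to 0.93 for interferon-stimulated genes, 0.69 for the NF-kB list, 0.54 for keratins, 0.40 for junctions and 0.76 for the positive correlation list. A floor of 5 FPKM took it to 0.24 for epithelial transcription factors, -0.14 for EMT transcription factors, 0.75 for epithelial proteases and inhibitors and 0.47 for the TGF-beta and BMP pathway. Of 114 named log2 ratios past 2-fold none changed sign, but with a pseudocount of 1 FPKM 27 came under 2-fold: ZEB1 -0.91, GRHL3 0.93, MARVELD3 0.83, CGN 0.96, TRAF1 0.83, MMP9 0.67 and CXCL5 0.52 are among them. Centring took 1 under 2-fold, HPGD at -0.99, and ratios through PC3-EMT14 took 0 of 110. With pooled values, how far the lines differ beyond the spread between samples could not be tested.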
